A study of Saccharomyces cerevisiae with 6 samples.

Results

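Fatty acids are built in the yeast cytosol by acetyl-CoA carboxylase and a synthase of 2 subunits, and a desaturase in the endoplasmic reticulum then puts a double bond into the saturated products. The 9 genes described here cover these steps: ACC1, FAS1 and FAS2 (synthesis), OLE1, MGA2 and SPT23 (desaturation and its control), and ELO1, FAA1 and FAA4 (elongation and activation). They were taken by gene symbol from the platform's probe table, and all 9 were found, with 1 spot each among 6084 spots, of which 5523 carried a gene symbol.

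The enzyme Ole1 is the sole fatty acid desaturase of Saccharomyces cerevisiae and holds 2 iron atoms at its active site, so unsaturated fatty acid synthesis is a step that needs iron. Transcription of OLE1 is switched on by Mga2 and Spt23, related proteins that are made as precursors in the membrane of the endoplasmic reticulum and released from it by ubiquitin-dependent processing. Their activity is therefore set to a large extent after transcription, at a level that transcript measurements do not read.

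RNA came from the double mutant aft1aft2 (strain Y18aft2delta), the single mutant aft1 (strain Y18) and the wild type wt (strain CM3260), and all 3 strains were described as without iron. Aft1 and Aft2 are the transcription factors that turn on iron uptake genes when iron is short. The 3 pairwise comparisons were each made in experiments 1 and 2, which gives 6 samples, and no culture with added iron is among them. The labels do not say which parts of AFT1 and AFT2 were removed, nor that the experiments were separate cultures, so the p-values measure a spread that may be technical.

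Each value is the log2 ratio of 2 strains at a spot, mutant over reference, or aft1aft2 over aft1, centred on the median spot of its column. The files hold ratios without intensities, so neither the brightness of a spot nor its distance from background is known. The base of the logarithm was taken to be 2, and the direction of the ratio, which the labels do not state outright, was judged likely from how the titles order the strains and from known uptake genes: FIT2, FET3 and ARN2 stood at -5.85, -3.43 and -2.56 in aft1 against wt. All 8 uptake genes examined had means below 0 there, and 6 passed the test given below. The others were ARN1 at -1.93 and FTR1 at -0.10. In the opposite direction all signs below would turn. Means are given with the standard error of the limma fit (n = 2 hybridisations per strain), and "rose" and "fell" are used of genes with a Benjamini-Hochberg adjusted p under 0.05 over all 6084 spots. Because RNA was taken from whole cultures, fewer cells with a transcript and less of it per cell cannot be told apart.

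The spots of the mutated genes do not check the strain labels. Against wt, AFT1 stood at 0.03 ± 0.25 in aft1 and -0.59 ± 0.25 in aft1aft2, and AFT2 read -0.40 and 1.96 in experiments 1 and 2 of aft1aft2, neither gene past the test, so below the strain names mean the hybridisations labelled with them. Over all spots 51 rose and 38 fell in aft1 against wt, 44 rose and 226 fell in aft1aft2 against wt, and 14 rose and 158 fell in aft1aft2 against aft1. Without centring these were 44 and 14, 36 and 36, and 2 and 50. After turning to the direction used here, the column medians lay above 0 by 0.265, 0.512 and 0.255 on average. They differed between the experiments. Values called as deposited below are turned in the same way but not centred.

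The desaturase gene OLE1 (YGL055W) had the largest mean difference of the 9 genes in aft1 against wt and in aft1aft2 against aft1. In aft1 against wt its log2 ratio was 3.31 in experiment 1 and 3.71 in experiment 2, which is 9.92-fold and 13.1-fold higher in aft1. In aft1aft2 against wt the same spot read 0.45 and 0.44, or 1.37-fold and 1.35-fold. Both aft1 hybridisations thus stood far above all 4 hybridisations of the other strains, with aft1aft2 slightly above wt each time.

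OLE1 rose in aft1 against wt, with a mean of 3.51 ± 0.25 or 11.4-fold (95% interval 7.57 to 17.3, limma adjusted p = 0.00525). It ranked 2 from the top among the 6084 spots of this comparison. In aft1aft2 against wt the mean was 0.44 ± 0.25 (interval -0.16 to 1.03, limma adjusted p = 0.348), which did not pass the test. Compared directly, OLE1 was lower in aft1aft2 than in aft1 by -2.87 and -3.29 on the log2 scale. This fall averaged -3.08 ± 0.25, or 8.43-fold (interval 5.58 to 12.7, limma adjusted p = 0.005), the 14th lowest spot of that comparison. The order of mean levels was therefore aft1, then aft1aft2 and wt, of which the last pair did not differ past the test. The size of that last difference depended on the processing. As deposited, aft1aft2 against wt read 0.85 and 1.06, with a mean of 0.95 (limma adjusted p = 0.077). With quantile normalised levels the mean was 0.78 (limma adjusted p = 0.13).

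Among the 12 other settings tried, OLE1 lost its call in both comparisons only without aft1 replicate 2. There the values were 3.31 (adjusted p = 0.0656) and -2.87 (adjusted p = 0.0891), and 4 and 13 spots of the whole table passed.

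**Figure D1:**
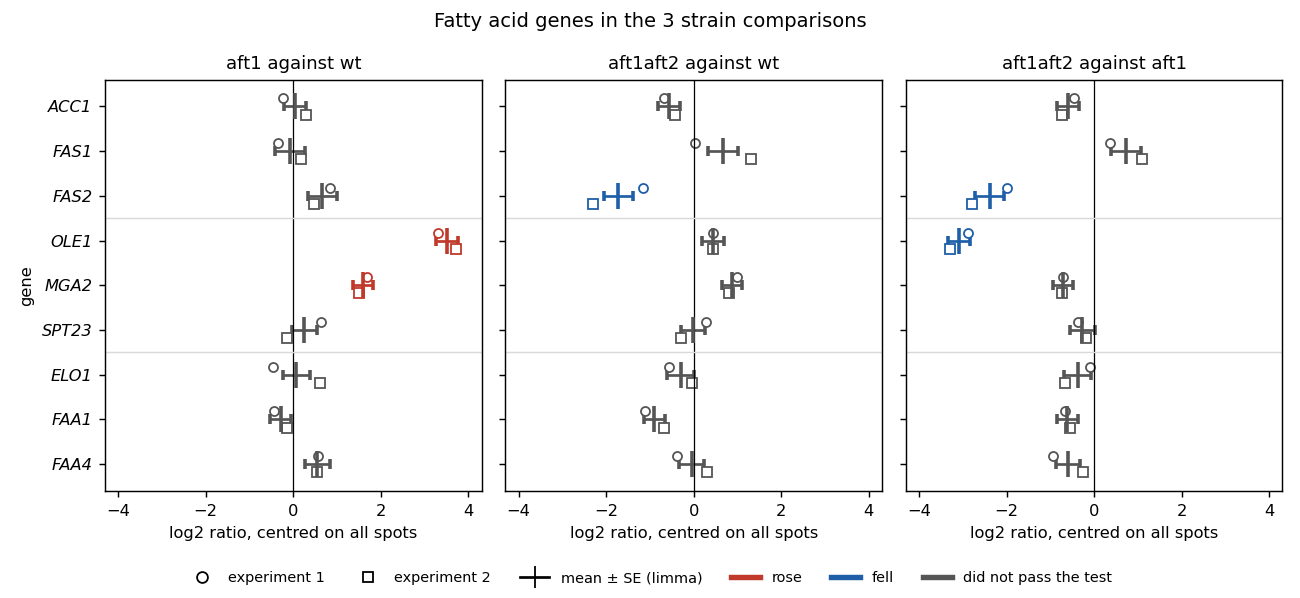
Log2 ratio (x axis, centred on all spots) of the 9 fatty acid genes (rows) in the 3 strain comparisons (panels). Circles are experiment 1, squares experiment 2, ticks with bars the mean ± SE of the limma fit, and red or blue marks genes that rose or fell. Against wt, OLE1 stands at 3.51 in aft1 and at 0.44 in aft1aft2, and FAS2 is the only one of the 9 past the test in aft1aft2.

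MGA2 (YIR033W), which encodes an activator of OLE1, was also higher in aft1. Its log2 ratio in aft1 against wt was 1.69 and 1.50 in experiments 1 and 2. In aft1aft2 against wt it was 0.98 and 0.80, so both mutants lay above wt in each experiment and aft1 lay above aft1aft2.

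MGA2 rose in aft1 against wt with a mean of 1.60 ± 0.23, or 3.03-fold (95% interval 2.06 to 4.46, limma adjusted p = 0.0345). The aft1aft2 mean against wt was 0.88 ± 0.23, or 1.84-fold, without passing (95% interval 0.32 to 1.44, limma adjusted p = 0.0969). The direct comparison of aft1aft2 with aft1 gave -0.71 and -0.73, a mean of -0.72 ± 0.23 that did not pass either (interval -1.27 to -0.16, limma adjusted p = 0.153). The level of MGA2 in aft1aft2 thus lay between those of aft1 and wt. Both intervals, which are not adjusted for the number of spots, excluded 0, while neither difference passed after adjustment. With no replicate block both passed (limma adjusted p = 0.0128 and 0.0251). That setting counts 1 residual degree of freedom too many, which makes its p-values too small, so these passes add no support. The call in aft1 against wt was lost in 5 of 12 other settings: with each comparison fitted alone (adjusted p = 0.0579), without wt replicate 1 or 2 (0.117 and 0.0915) and without aft1 replicate 1 or 2 (0.413 and 0.439), while the value stayed between 1.51 and 1.69.

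SPT23 (YKL020C), the paralogue of MGA2 that also activates OLE1, did not pass the test in any comparison. It read 0.63 and -0.14 in aft1 against wt, a mean of 0.25 ± 0.28 with a 95% interval of -0.42 to 0.92. It read 0.27 and -0.30 in aft1aft2 against wt, and -0.36 and -0.18 in aft1aft2 against aft1, with limma adjusted p-values between 0.608 and 0.974 in the 3 comparisons. Within aft1 against wt MGA2 exceeded SPT23 by 1.06 and 1.64 log2 units in experiments 1 and 2, a difference that was not tested.

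Of the synthesis genes FAS2 fell in aft1aft2, while FAS1 and ACC1 did not pass the test in any comparison. FAS2 (YPL231W) encodes the alpha subunit of fatty acid synthase, which carries the acyl carrier domain and the condensing activity. Its log2 ratio was -1.15 and -2.30 in aft1aft2 against wt and -1.99 and -2.79 in aft1aft2 against aft1. In aft1 against wt it was 0.84 and 0.48, so the levels ran from aft1 down through wt to aft1aft2 in both experiments.

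FAS2 fell in aft1aft2 against wt, with a mean of -1.72 ± 0.33 or 3.31-fold (95% interval 1.91 to 5.72, limma adjusted p = 0.0436). It also fell in aft1aft2 against aft1, with a mean of -2.39 ± 0.33 or 5.23-fold (interval 3.02 to 9.06, limma adjusted p = 0.0212). The mean in aft1 against wt, 0.66 ± 0.33, did not pass (interval -0.13 to 1.45, limma adjusted p = 0.388). The call against wt stood close to the threshold and was lost in 6 of 12 settings: with the values as deposited (adjusted p = 0.077), with quantile normalised levels (0.0558), and without wt replicate 2 (0.151), either aft1 replicate (0.0906 in each case) or aft1aft2 replicate 2 (0.0958). The call against aft1 was lost with the values as deposited (adjusted p = 0.0572) and without aft1 replicate 1 or 2 (0.138 and 0.237).

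FAS1 (YKL182W), which encodes the beta subunit of the synthase, read 0.02 and 1.30 in aft1aft2 against wt, a mean of 0.66 ± 0.34. The same spot read 0.36 and 1.10 in aft1aft2 against aft1, and -0.34 and 0.18 in aft1 against wt. None of the 3 means passed (limma adjusted p from 0.269 to 0.938), and the 95% interval in aft1aft2 against wt was -0.17 to 1.48. FAS2 minus FAS1 was -2.35 and -3.89 log2 units in aft1aft2 against aft1, and -1.17 and -3.59 in aft1aft2 against wt. FAS2 lay below FAS1 in all 4 of these ratios, by amounts that differed between the experiments, and the difference was not tested. FAS1 and FAS2 were also the members with the widest spread between experiments, with an SD per hybridisation of 0.451 and 0.416, against 0.077 for MGA2 and 0.167 for OLE1.

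ACC1 (YNR016C) encodes acetyl-CoA carboxylase, which makes the malonyl-CoA that the synthase uses. It read -0.68 and -0.42 in aft1aft2 against wt and -0.46 and -0.73 in aft1aft2 against aft1. Its means there were -0.56 ± 0.25 and -0.59 ± 0.25, neither past the test (limma adjusted p = 0.264 and 0.230). In aft1 against wt ACC1 read -0.23 and 0.29, on opposite sides of 0.

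**Figure D2:**
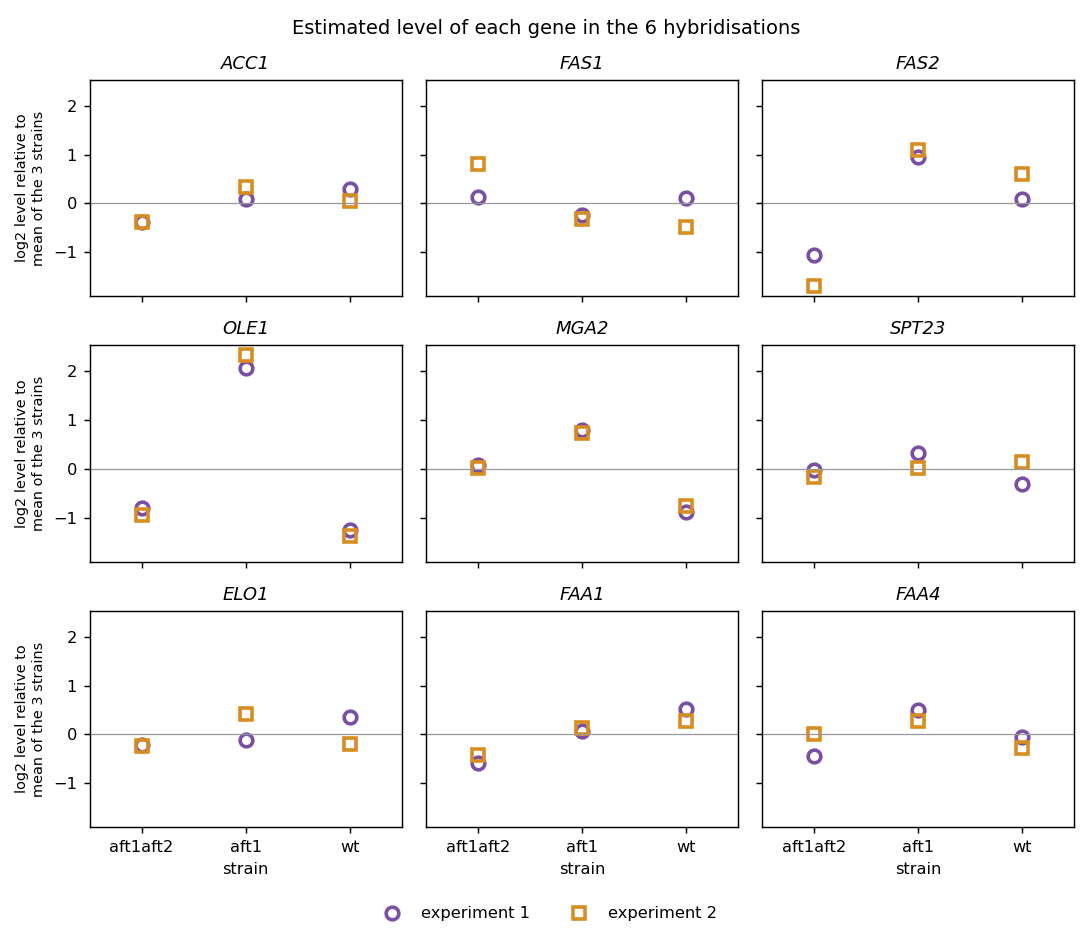
Estimated log2 level of each gene (y axis, relative to the mean of the 3 strains within an experiment) in the strains aft1aft2, aft1 and wt (x axis). Circles are experiment 1 and squares experiment 2, 6 hybridisations in all. OLE1 is high in both aft1 hybridisations, at 2.06 and 2.33, and FAS2 low in both of aft1aft2, at -1.05 and -1.70.

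Elongation and activation genes did not pass the test in any comparison. FAA1 (YOR317W) and FAA4 (YMR246W) encode acyl-CoA synthetases that activate long-chain fatty acids taken up or released in the cell. FAA1 read -1.11 and -0.68 in aft1aft2 against wt, a mean of -0.90 ± 0.24 with a 95% interval of -1.49 to -0.31 (limma adjusted p = 0.104). In aft1 against wt FAA1 read -0.44 and -0.14, and in aft1aft2 against aft1 -0.66 and -0.56. With centring all 6 FAA1 ratios were below 0. As deposited the ratio in experiment 2 of aft1 against wt was 0.08, and the mean of that comparison -0.03.

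FAA4 read 0.56 and 0.54 in aft1 against wt (mean 0.55 ± 0.28, limma adjusted p = 0.393), and -0.39 and 0.30 in aft1aft2 against wt. Against aft1, FAA4 read -0.94 and -0.26 in aft1aft2, and the difference between FAA4 and FAA1 was not tested. ELO1 (YJL196C), the elongase for medium-chain fatty acids, changed sign between experiments in aft1 against wt (-0.47 and 0.61), and its 3 means lay between -0.38 and 0.07. Whether the spots of FAA1 and FAA4, of MGA2 and SPT23, or of ELO1 and its relatives ELO2 and ELO3 also read each other's transcripts was not examined.

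Counted over the 9 genes, 2 rose and 0 fell in aft1 against wt (OLE1 and MGA2), where 0.838% of all spots rose and 0.625% fell. For aft1aft2 against wt the counts were 0 risen and 1 fallen (FAS2), beside 0.723% and 3.71% of all spots. For aft1aft2 against aft1 they were 0 risen and 2 fallen (OLE1 and FAS2), beside 0.23% and 2.6%. With centred values the same genes in the same comparisons, and no other members, were at least 2-fold different one way in both experiments, a criterion met by 3.93%, 5.37% and 4.68% of all spots. With the values as deposited the gene that met it in aft1aft2 against wt was MGA2 and not FAS2, and the spots there were 413 higher and 94 lower, beside 65 and 262 when centred. At an unadjusted limma p under 0.05 there were 2 higher and 0 lower members in aft1 against wt, 1 higher and 2 lower in aft1aft2 against wt, and 0 higher and 4 lower in aft1aft2 against aft1. Of all spots 8.07% were higher and 7.36% lower at that threshold in the first of these comparisons, 9.24% and 12.2% in the second, and 9.5% and 13.1% in the third. The 9 genes were chosen with earlier results of these data known, so all these shares are given for scale, and the set was not tested.

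The median of the 9 means was 0.25 for aft1 and -0.05 for aft1aft2 when each was set against wt, and -0.60 for aft1aft2 set against aft1, beside medians of 0.01, 0.02 and 0.03 over all spots. In the last of these 8 of the 9 means were below 0, FAS1 being the exception. The comparisons share hybridisations, so their values are not separate evidence.

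**Figure D3:**
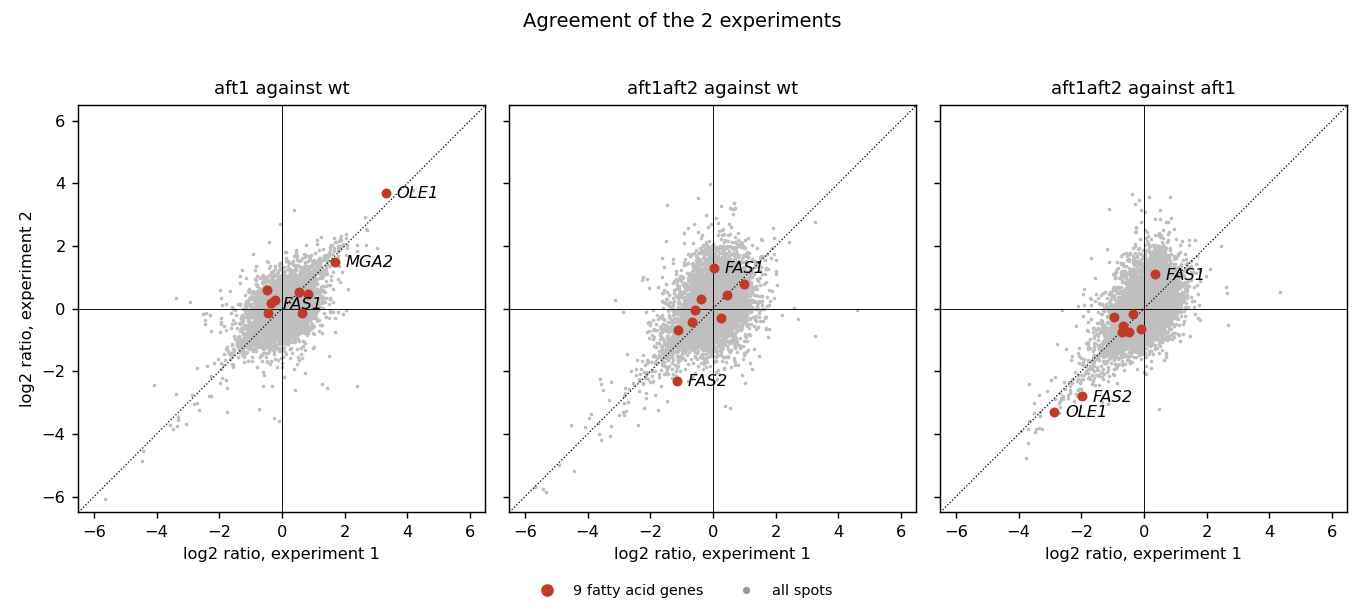
Log2 ratio in experiment 2 (y axis) against experiment 1 (x axis) for all 6084 spots (grey) and the 9 fatty acid genes (red) in the 3 comparisons, with the line of equality dotted. OLE1 lies near the line at 3.31 and 3.71 in aft1 against wt, while FAS1 in aft1aft2 against wt, at 0.02 and 1.30, lies away from it.

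The spots most like OLE1 were found by Euclidean distance over 4 ratios, those of aft1 and of aft1aft2 against wt in experiments 1 and 2. The nearest named spot was PBI1, at a distance of 1.34, with means of 2.63 ± 0.23 in aft1 and 0.30 ± 0.23 in aft1aft2 against wt. YGL039W followed at 1.90, the leucine synthesis gene LEU2 at 1.95, TSA2 (a peroxiredoxin gene) at 2.09 and TMA10 at 2.14. For scale, the median named spot was 5.08 away and a spot at 0 in all 4 ratios 5.01 away. The mean of PBI1 in aft1 against wt, 2.63, was below the 3.51 of OLE1. LEU2 is a gene often used as a marker in strain construction. It read 2.40 and 2.02 in aft1 against wt and 0.33 and 0.78 in aft1aft2 against wt. Its likeness to OLE1 over these ratios is how it was picked and is no separate result. The part that other differences between the strains have in these results was not tested.

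Of the other enzymes with a di-iron centre and the proteins that supply them with electrons, 7 genes were listed and measured. In aft1 against wt 2 rose and 0 fell, where 0.838% of all spots rose and 0.625% fell. The sterol desaturase gene ERG3 was at 1.76 ± 0.24 and the sterol methyl oxidase gene ERG25 at 1.91 ± 0.27, with limma adjusted p-values of 0.0296 and 0.0337, lost in 5 and 4 of 12 settings. In aft1aft2 against wt they stood at 0.00 ± 0.24 and 0.40 ± 0.27 and none of the 7 passed.

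Compared with aft1, 3 of the 7 fell in aft1aft2, where 2.6% of all spots fell. These were NCP1, which encodes the reductase that passes electrons to sterol enzymes, at -2.00 ± 0.26 (limma adjusted p = 0.0188), ERG3 at -1.76 ± 0.24 (0.0214) and ERG25 at -1.50 ± 0.27 (0.0477). All 3 calls were lost with the values as deposited (adjusted p = 0.062, 0.0819 and 0.0983) and without either aft1 replicate or aft1aft2 replicate 2, and that of ERG25 was lost in 7 of 12 settings in all. Against wt NCP1 stood at 0.73 ± 0.26 in aft1 and -1.27 ± 0.26 in aft1aft2, neither past the test (limma adjusted p = 0.255 and 0.0524). The sphingolipid hydroxylase genes did not pass in any comparison. For SUR2 the means against wt were -0.41 ± 0.27 for aft1 and -1.22 ± 0.27 for aft1aft2 (limma adjusted p = 0.0672), and the mean of aft1aft2 against aft1 was -0.81 ± 0.27 (0.163). The 3 means of SCS7 lay between -0.19 and 0.41. CYB5, which encodes the electron carrier cytochrome b5, was uneven in aft1aft2 against aft1, at 0.22 and 2.24 in experiments 1 and 2. CBR1, another of the 7 genes, stood at -0.84 ± 0.27 in that comparison and did not pass (limma adjusted p = 0.149).

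Other genes reported to depend on Mga2 were IZH1, IZH2 and IZH4, which encode related membrane proteins, and the alcohol acetyltransferase gene ATF1. Of these 4 genes IZH4 rose in both mutants against wt, where 0.838% and 0.723% of all spots rose. It stood at 3.98 ± 0.25 in aft1 and 3.02 ± 0.25 in aft1aft2 (limma adjusted p = 0.00408 and 0.00472). In aft1aft2 against aft1 IZH4 was -0.96 ± 0.25 and did not pass, where OLE1 fell by 3.08 in log2. IZH1 read 1.16 and 1.39 in aft1 against wt and IZH2 1.58 and 1.04, neither past the test (limma adjusted p = 0.0806 and 0.123). The means of IZH1 were 0.00 ± 0.26 in aft1aft2 against wt and -1.28 ± 0.26 in aft1aft2 against aft1. Those of IZH2 were 1.19 ± 0.32 and -0.12 ± 0.32, and none of these means passed either. ATF1 stood at -0.30 ± 0.32 in aft1 and -0.23 ± 0.32 in aft1aft2 against wt.

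Of 7 genes for the machinery that processes Mga2 and Spt23 none passed in either mutant against wt. Between the mutants 1 fell in aft1aft2 against aft1, where 2.6% of all spots fell. This was CDC48, which encodes the ATPase that extracts the processed factors from their membrane partners, at -1.49 ± 0.25 (limma adjusted p = 0.0404, lost in 7 of 12 settings). RSP5, the ubiquitin ligase gene, stood at 0.45 ± 0.26 in aft1 and -0.18 ± 0.26 in aft1aft2 against wt.

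Among 9 genes for regulators of lipid metabolism, HAP1 and ROX1 passed in 1 comparison each. Of all spots 2.6% fell in aft1aft2 against aft1 and 0.723% rose in aft1aft2 against wt. HAP1, which encodes a haem-responsive activator, fell in aft1aft2 against aft1 to -2.15 ± 0.24 (limma adjusted p = 0.0109). It read 1.16 and 1.55 in aft1 against wt and -0.86 and -0.72 in aft1aft2 against wt, neither mean past the test. Its call was lost without aft1 replicate 1 or 2 (adjusted p = 0.107 and 0.205). ROX1, the repressor of hypoxic genes, rose in aft1aft2 against wt to 1.41 ± 0.23 (limma adjusted p = 0.0311, lost in 6 of 12 settings) and was 1.18 ± 0.23 in aft1 against wt without passing. INO2, INO4 and OPI1, which encode the regulators of phospholipid genes that also act on FAS1 and FAS2, lay between -0.26 and 0.44 against wt in both mutants, and none passed.

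**Figure D4:**
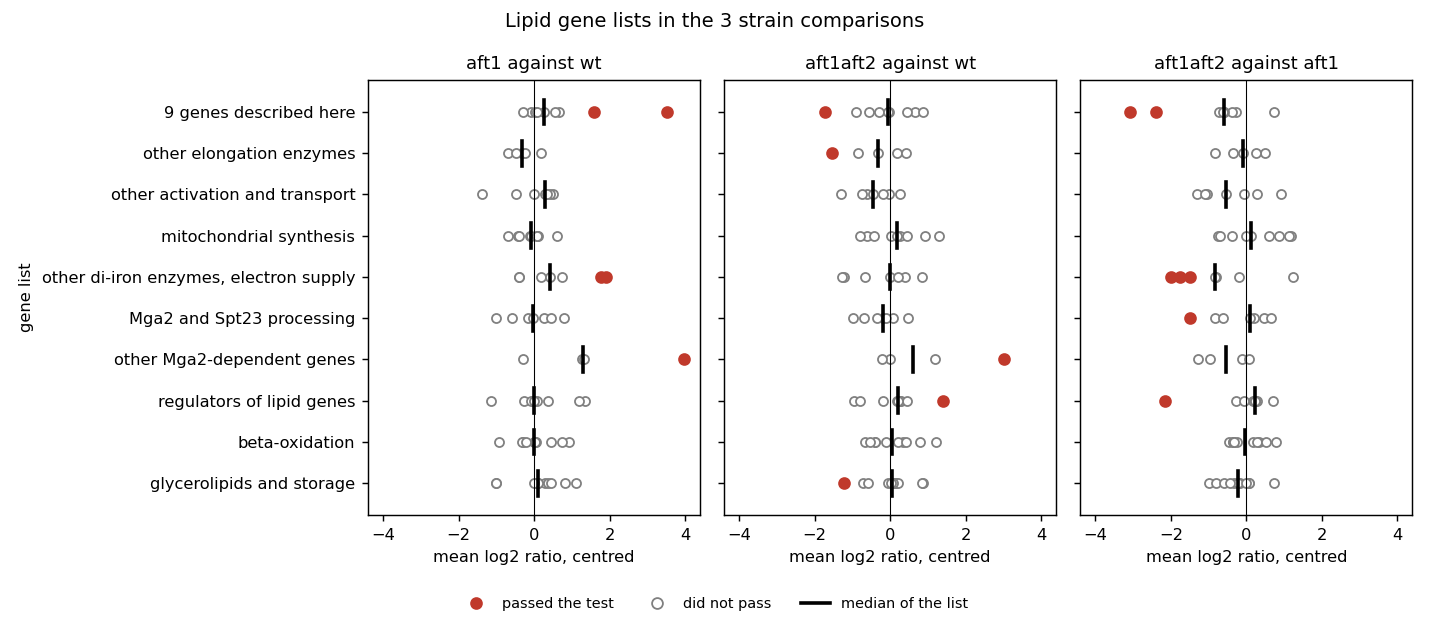
Mean log2 ratio (x axis, centred) of each gene in 10 lists of lipid genes (rows) in the 3 comparisons (panels). Filled circles passed the limma test, open circles did not, and vertical bars are list medians. Beta-oxidation and mitochondrial synthesis hold no filled circle in any panel.

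The remaining lists held few calls. Of 5 other elongation genes 1 fell in aft1aft2 against wt, where 3.71% of all spots fell. This was ELO2, an elongase for long-chain fatty acids, at -1.53 ± 0.30 (limma adjusted p = 0.0447, lost in 7 of 12 settings). Of 12 genes of glycerolipid synthesis and storage 1 fell there, CDS1, the CDP-diacylglycerol synthase gene, at -1.22 ± 0.24 (limma adjusted p = 0.0494, lost in 10 of 12 settings). None of the 9 genes of mitochondrial fatty acid synthesis, the 10 of beta-oxidation or the 7 others of activation and transport passed limma's test in any comparison. At an unadjusted p under 0.05 these had 0, 1 and 0 higher and 0, 1 and 1 lower in aft1 against wt. The same counts were 1, 1 and 0 higher and 1, 0 and 2 lower in aft1aft2 against wt, and 2, 0 and 0 higher and 2, 0 and 2 lower in aft1aft2 against aft1, to be read beside the shares of all spots at that threshold given above. The activation genes FAA2 and FAA3 differed widely between the experiments in their ratios to wt. In experiments 1 and 2 of aft1 against wt FAA3 read 1.51 and -1.52, and FAA2 -0.31 and -2.48. In aft1aft2 against aft1 FAA2 read 0.98 and 0.88.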

How the data were processed

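Per the labels, RNA from exponentially growing cells (5 µg) was copied and hybridised to nylon GeneFilters membranes, which were exposed for 3 days and quantified with PATHWAYS 3. The deposited values are log ratios, read here as log2. Sources used here do not give the authors' normalisation, log base, ratio direction or genome build. In each experiment the aft1aft2 to wt log ratio equalled the sum of the other 2 within 0.01 at all spots, so the 3 ratios share 3 hybridisations. Columns were turned to mutant minus reference and centred on their medians, and levels of each strain obtained by least squares. A model with terms for strain and experiment was fitted with limma 3.58.1 under R 4.3.3 (2 residual degrees of freedom; empirical Bayes prior of 4.25 degrees of freedom and variance 0.0754), two-sided, with Benjamini-Hochberg adjustment over 6084 spots. With this prior no standard error can be under 0.226. The experiment number pairs the strains because ratios were formed within an experiment. The number of hybridisations limits the precision.

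Symbols came from the platform annotation, updated through the R64 gene table. The members and lists were chosen with earlier results of these data known. Named were the 9 members, genes of the other lists past the test with further genes of these lists for comparison, and the 5 named spots nearest to OLE1. The fit was tested on simulated data. A gene that did not pass is not thereby shown to be unchanged. No sequences are printed, and 0 columns were left unused.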

Additional observations from a re-analysis of the deposited data

Results flagged for a closer look

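In 2 of the 9 genes the mutants differed from each other by the direct limma test. OLE1 was -3.08 ± 0.25 in aft1aft2 against aft1, having been 3.51 in aft1 and 0.44 in aft1aft2 against wt. FAS2 was -2.39 ± 0.33 in aft1aft2 against aft1, and its means against wt were of opposite sign, -1.72 in aft1aft2 and 0.66 in aft1.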

How the results depend on the processing

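Over 12 alternative settings the calls of OLE1 kept their direction in all and passed in 11 in each comparison, and no call of MGA2 or FAS2 changed sign. The settings are not separate checks, since leaving out a hybridisation of the strain outside a comparison left the means of that comparison as they were. With the values as deposited the spots called were 58, 72 and 52 (aft1 against wt, aft1aft2 against wt, aft1aft2 against aft1), the members called in the last 2 were 0 and 1, and at least 2-fold in both experiments in aft1aft2 against wt were 507 spots, 413 higher and 94 lower, beside 327 when centred. Means that had not passed changed sign there: FAS1 in aft1 against wt to 0.18, and SPT23, ELO1 and FAA4 in aft1aft2 against wt to 0.50, 0.21 and 0.47. Scaled columns gave 217 spots in aft1 against wt; SPT23 in aft1aft2 against wt was 0.02 there and 0.01 with quantile normalised levels, where 0 members were called in that comparison. With each comparison alone the spots were 44, 157 and 112, with 1 member in aft1 against wt. With no replicate block, which counts 1 residual degree of freedom too many because levels were set to a mean of 0 within each experiment, they were 590, 940 and 950, with 3 members in aft1aft2 against wt (MGA2, FAA1 and FAS2) and 3 in aft1aft2 against aft1 (OLE1, MGA2 and FAS2). MGA2 then passed there at -0.72 (adjusted p = 0.0251) and against wt at 0.88 (0.0128). Leaving out 1 hybridisation gave 4 to 233, 75 to 559 and 13 to 503 spots, and 0 to 2, 0 to 1 and 0 to 2 members. In these, means that had not passed crossed 0: in aft1 against wt SPT23 (-0.09 to 0.58), FAS1 (-0.53 to 0.37), ACC1 (-0.16 to 0.23) and ELO1 (-0.34 to 0.48), in aft1aft2 against wt SPT23 (-0.36 to 0.32), ELO1 (-0.71 to 0.10) and FAA4 (-0.39 to 0.29), and in aft1aft2 against aft1 ELO1 (-0.79 to 0.03). The causes were not tested. Without intensities, signal over background is unknown.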
